A study of Oryza sativa with 12 samples.

Results

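GRAS proteins are a plant family of transcriptional regulators, and 66 of the 40674 genes in the rice table carry the GRAS domain in their deposited description. The same 66 genes are those whose transcription factor family is given as GRAS, and no expression value was used to choose them. Of the 66, 39 had enough reads to be tested, against 25473 of all 40674 genes. RNA was sequenced from aerial organs of 12-day-old seedlings of 2 near-isogenic lines, with 3 libraries in each of 4 groups. NIL-TT2HPS32, called HPS32 here, carries a TT2 allele labelled as loss-of-function, and NIL-TT2HJX, called HJX, is labelled wild type. Seedlings of each line were raised at 28 °C and then spent 20 h either at 42.5 °C or at 28 °C, which gave HPS32 under heat, HPS32 at 28 °C, HJX under heat and HJX at 28 °C. TT2 codes for one of the gamma subunits that anchor G proteins at the plasma membrane. The labels give no transgene, and do not say whether the 3 libraries of a group came from separate plants, so the p-values measure the spread between these libraries.

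GRAS proteins share a conserved C-terminal domain and act mostly by binding other transcription factors, either as co-activators or as repressors. The best known are the DELLA proteins, which hold back growth until gibberellin and its receptor GID1 mark them for breakdown, so that the protein can change without its transcript. Other members set up cell layers (SHORT-ROOT and SCARECROW), keep meristems active (the HAIRY MERISTEM type), start side shoots (MOC1), take part in brassinosteroid responses (DLT) or in symbiosis signalling (NSP1 and NSP2). In rice, chitin fragments and gibberellin both raise the transcripts of CIGR1 and CIGR2. Names are given here for 17 members. SLR1, SCL7, SHR1, SHR2, SCR1, SCR2, CIGR1 and CIGR2 were matched through RefSeq synonyms and their order along the chromosome, and the others come from general knowledge of the identifiers. Members without a name have the domain as their only annotation and are given by identifier.

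The libraries held between 14785975 and 17871972 reads counted on genes, of which GRAS genes took between 0.118% and 0.156%. Levels are CPM, reads of a gene scaled to a common library size, after TMM scaling of the libraries, and the mean scaling factor was 1.27 in HPS32 under heat, 0.86 in HPS32 at 28 °C, 1.06 in HJX under heat and 0.863 in HJX at 28 °C. The Rubisco small subunit and Rubisco activase genes, 4 markers of green leaf, summed to between 827 and 922 CPM in HPS32 under heat, against 14760 to 15490 CPM in HPS32 at 28 °C. In HJX they summed to between 532 and 676 CPM under heat, against 13360 to 17990 CPM at 28 °C. The 3 root markers stayed at or below 13.8 CPM in sum in each library, and RCc3 or LSI2 was at 0 in each group but HJX at 28 °C. The 5 meristem markers summed to 51.9 to 58.3 CPM in HPS32 under heat against 141 to 190 CPM at 28 °C, and to 55.4 to 69.4 CPM in HJX under heat against 146 to 202 CPM at 28 °C. Those sums were nearly all the marker LOG. Its mean was 54.9 CPM under heat against 159 CPM at 28 °C in HPS32, and 60.1 against 179 CPM in HJX. The homeobox genes OSH1 and OSH71 were not called under heat in HPS32, with log2 fold changes of 0.921 and 1.092. In HJX OSH1 was called lower (-5.955) and OSH71 was not called (-0.0969). OSH1 passed the filter only through HJX at 28 °C, so its fall there is bound to that selection. OSH15 and OSH6 had too few reads to be tested. Of the 3 seed storage markers GluB1 was at 0 in every group, and the sum was highest in HJX under heat, with 9.02 to 12.1 CPM, against at most 3.94 CPM in the other groups. That sum was nearly all GluA1, with a mean of 10.3 CPM in HJX under heat against 1.81 CPM at 28 °C. The GluA-type gene went the other way, with 0.0374 against 0.916 CPM in HJX and 0.244 against 0.709 CPM in HPS32. The part of these shifts in the GRAS results was not tested, and in such bulk RNA fewer cells of a type and less RNA per cell cannot be told apart. Reads on TT2 itself were few, 16 in HPS32 under heat, 7 in HPS32 at 28 °C, 8 in HJX under heat and 9 in HJX at 28 °C, each summed over 3 libraries. They cannot check the labels, since the HPS32 allele is described by its function and not by its transcript.

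Expression was concentrated in a few members. Levels of different genes are compared as CPM per kb of the deposited gene length, and on that scale SLR1, the rice DELLA protein, made up 23.2% of the level summed over the 66 members and the 6 highest members 63.3%. SLR1 (Os03g0707600, chromosome 3, 28512754 to 28515086 in the coordinates of the deposited table, whose build is not given in the sources used here) was the highest member in each group. It stood at 119 ± 6.97 CPM per kb in HPS32 under heat and 152 ± 6.56 at 28 °C, and at 92.6 ± 1.13 in HJX under heat and 164 ± 8.52 at 28 °C (SD, n = 3 each). The next in the mean of the 12 libraries were Os01g0881500, Os01g0842200, Os12g0573200, CIGR2 and Os01g0948200. At the other end, MOC1 (Os06g0610350), which starts axillary buds, had 0.141 ± 0.0555 CPM per kb in HPS32 under heat, 0.210 ± 0.0874 in HPS32 at 28 °C, 0.126 ± 0.0841 in HJX under heat and 0.149 ± 0.0528 in HJX at 28 °C.

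**Figure D1:**
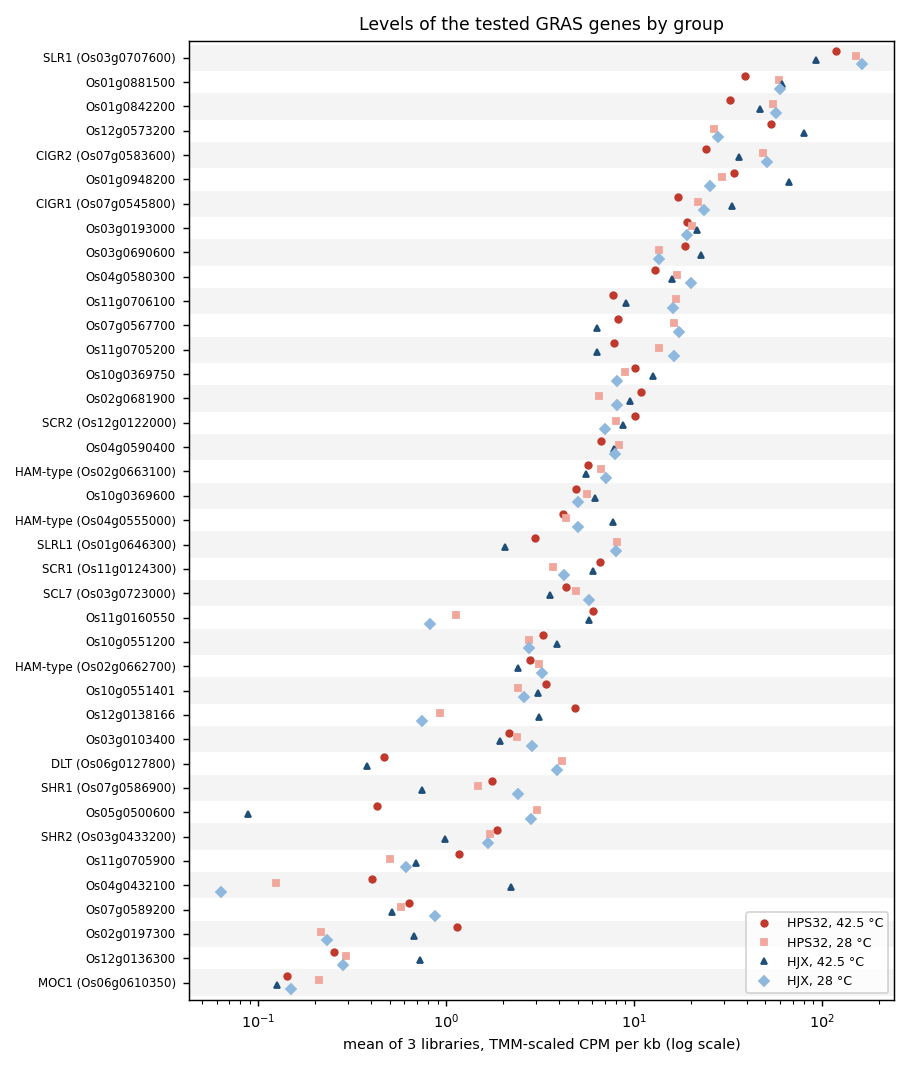
Mean level of each of the 39 tested GRAS genes in the 4 groups, in TMM-scaled CPM per kb on a log axis, ordered by the mean of the 12 libraries; the SD over 3 libraries is not drawn. SLR1 lies right of the other members in each group, and the groups of Os05g0500600, DLT and Os11g0160550 lie far apart.

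The 27 members that were not tested were near silent. No read fell on 9 of them in 12 libraries, 10 had between 1 and 10 reads in all, and 8 had more than 10 reads but stayed below the filter. NSP1 (Os03g0408600) and NSP2 (Os03g0263300), which act in nodulation signalling in legumes and in strigolactone synthesis in rice, had 2 and 13 reads in all. NSP1 lies 74.8 kb from TT2, closer than any other member, and the next on that chromosome, SHR2, is 1509 kb away. Os05g0378500 had 10, 13 and 8 reads in the HPS32 libraries at 28 °C and 0, 4 and 10 in the HJX libraries at 28 °C, and no read in the 6 heat libraries. This member and the next 2 were singled out after their values were seen. Os11g0500050 had 13 reads in HPS32 under heat, 2 in HPS32 at 28 °C, 0 in HJX under heat and 1 in HJX at 28 °C. Os11g0139600 had 2 and 9 reads in HPS32 under heat and at 28 °C, and 21 and 8 in HJX under heat and at 28 °C. These counts were below the filter of the test used here, and a library with 0 reads allows a level of up to 0.154 to 0.220 CPM (3 reads, counting error only). The authors' deposited tests did call Os05g0378500 lower under heat, by -6.24 in HPS32 and -4.96 in HJX (adjusted p = 3.90e-05 and 0.0226). They also called Os11g0139600 lower in HPS32 than in HJX under heat (-3.53, adjusted p = 0.0274), and Os11g0500050 was not called there.

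Where the members lie bears on their counts. GRAS genes were found on 10 of the 12 chromosomes, with 14 on chromosome 11, 9 on chromosome 3 and none on chromosomes 8 and 9. Within the table, 11 pairs of members overlap each other on opposite strands, and the library kit is not one that marks strand. Of the 9 members without a read, 5 lie inside an unspliced gene on the opposite strand, and among all genes 317 of 317 in that position had no read, against 17.7% of the 40419 genes on the 12 chromosomes. In overlapping pairs in which both members had reads, reads from the shared stretch cannot be assigned by strand. Examples are Os10g0369600 with Os10g0369750 and Os10g0551200 with Os10g0551401. Such reads may be missing from the counts, as in the 317 genes without a read, which was not tested for these pairs. Levels per kb of overlapped members would then be too low, and 2002 of the 2744 bases of Os02g0662700 lie within the span of its partner. The short arms of chromosomes 11 and 12 carry near-identical copies, and reads of SCR1 and SCR2 and of the members between Os11g0139550 and Os11g0141700 and between Os12g0136300 and Os12g0138200 are uncertain between copies.

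At 28 °C no GRAS gene passed the test between the lines. In edgeR's quasi-likelihood test none of the 39 members passed an adjusted p of 0.05, in either direction, where 0.0864% of all tested genes did (0.0432% higher and 0.0432% lower in HPS32). Without adjustment, 5 members had a p under 0.05 in edgeR (6.54% of all genes tested). In DESeq2 3 of 57 did (4.55% of all genes) and in limma-voom 3 of 39 (6.40% of all genes), and neither tool called a member. The median log2 fold change, HPS32 over HJX, was -0.05 over the members and 0.0044 over all genes. The libraries of the lines did not overlap for 4 members, where 10.3% of all tested genes did not overlap. One of these, Os11g0705200, had 29.4, 30.6 and 30.6 CPM in HPS32 against 34.8, 37.0 and 37.0 CPM in HJX, at a log2 fold change of -0.26 ± 0.10 (adjusted p = 0.610). Beside this comparison, OSH1, a homeobox gene that marks shoot meristems, had 1 read over the HPS32 libraries at 28 °C and 72 over those of HJX, and OSH15 had 0 and 53. SHR1 had 4.91, 3.42 and 3.45 CPM in HPS32 against 8.96, 6.14 and 4.27 CPM in HJX, with overlapping libraries. In simulated counts for the lines at 28 °C over 23959 genes, the same test recovered 72.5% of 2-fold and 93.8% of 4-fold changes. Of the genes it called there, 8.99% had not been changed, more than the threshold of 0.05 allows for. Genes with low counts were not among those changed, and the heat libraries were simulated at the 28 °C level. The rates therefore need not hold for members with few reads. Differences under 2-fold at 28 °C may thus go undetected with 3 libraries a group.

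Heat for 20 h changed most expressed GRAS genes in each line, at about the rate of all genes. In HPS32, 25 of 39 members were called between 42.5 °C and 28 °C, 64.1%, where 70.4% of all tested genes were called. Of these, 11 were higher under heat (background 34%) and 14 lower (36.4%). In HJX, 30 of 39 were called, 76.9%, where the background was 74.9%. Here 15 were higher under heat (background 38.1%) and 15 lower (36.8%). The median size of the log2 fold change was 0.47 over the members and 0.72 over all genes in HPS32, and 0.63 and 0.85 in HJX, a difference that was not tested. With total counts in place of TMM, which raises the median of all genes by 0.56 in HPS32 and 0.30 in HJX on the log2 scale, the split became 22 higher and 6 lower in HPS32 (56.4% and 19.9% of all genes) and 20 higher and 9 lower in HJX (48.0% and 28.6% of all genes). The summed level of the 66 members was 1197 ± 32.2 CPM in HPS32 under heat and 1425 ± 90.5 CPM at 28 °C, but their share of the reads was 0.152% ± 0.00306 under heat and 0.123% ± 0.00761 at 28 °C, so the direction of the sum turned with the scale. In HJX the sums were 1449 ± 36.5 CPM under heat and 1482 ± 71.9 CPM at 28 °C, and the shares 0.154% ± 0.00433 and 0.128% ± 0.00271 (SD, n = 3 each).

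Between the lines, 8 members, 20.5% of the 39, rose under heat in both (28.4% of all genes tested) and 10, 25.6%, fell in both (29.9% of all genes tested). CIGR1 fell in HPS32 and rose in HJX, though with total counts its HPS32 change was 0.21. A further 6 rose and 5 fell with a call in HJX alone, 3 rose and 3 fell with a call in HPS32 alone, and MOC1, Os07g0589200 and Os10g0369600 were called in neither line. Of the 18 that moved the same way in both, the size of the change was smaller in HPS32 for 4 of the 8 that rose (59.8% of all such genes) and for 7 of the 10 that fell (65.8% of all such genes).

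**Figure D2:**
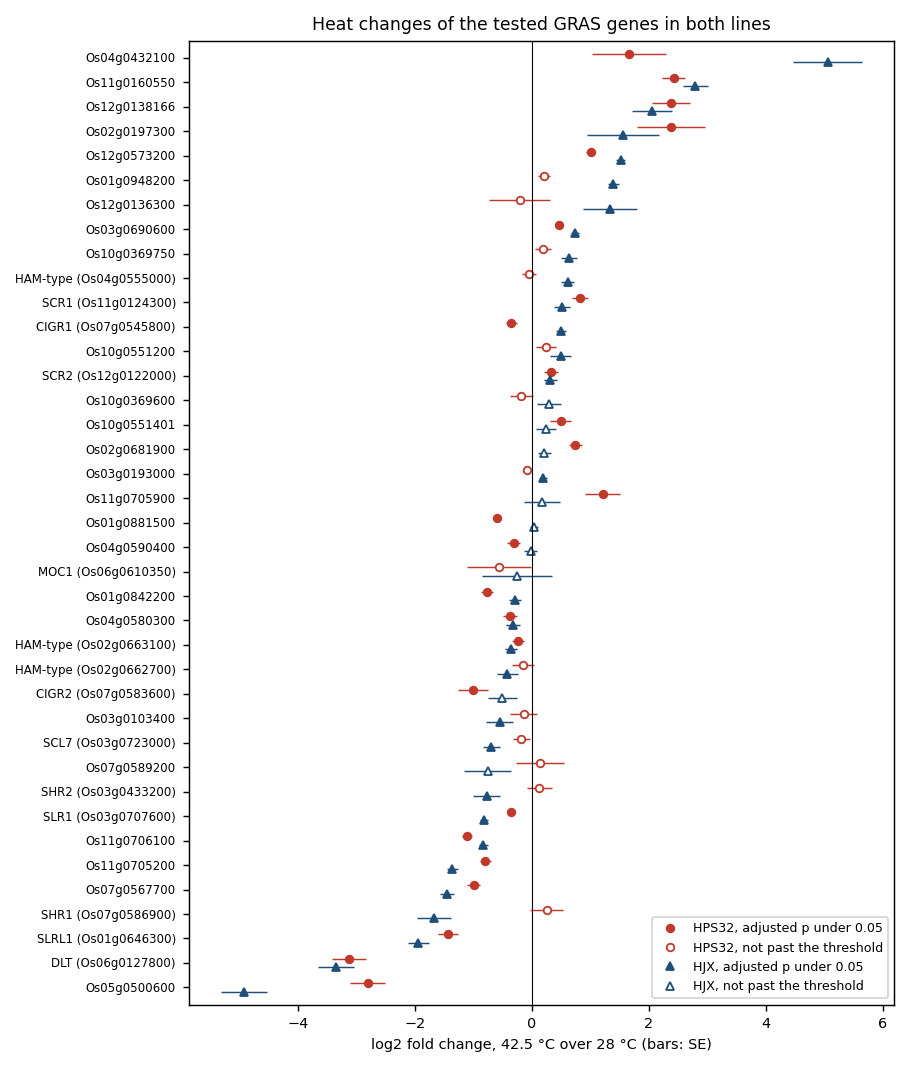
Log2 fold change of each tested GRAS gene between 42.5 °C and 28 °C in HPS32 (circles) and HJX (triangles), with SE bars from 12 libraries; filled symbols have an adjusted p under 0.05 in edgeR. CIGR1 lies left of 0 in HPS32 (right of it, at 0.21, with total counts) and right of 0 in HJX, and Os05g0500600 and DLT lie furthest left in both lines.

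Of the DELLA group, SLR1 was lower under heat in both lines, and less so in HPS32, where the direction turned with total counts. It had 264, 273 and 296 CPM in HPS32 under heat against 372, 342 and 352 CPM at 28 °C, and 219, 214 and 215 CPM in HJX under heat against 401, 385 and 361 CPM at 28 °C. The 3 HJX heat libraries were the lowest of the 12 and close to one another, the 3 HPS32 heat libraries lay above them, and neither group reached the libraries at 28 °C. The log2 fold change was -0.36 ± 0.07 in HPS32 (adjusted p = 1.94e-04) and -0.82 ± 0.07 in HJX (adjusted p = 3.53e-09), and the interaction, the HPS32 change minus the HJX change, was 0.47 ± 0.10 (adjusted p = 0.00177). Under heat SLR1 was therefore 1.28-fold higher in HPS32 than in HJX (log2 fold change 0.36 ± 0.07, adjusted p = 3.90e-04). With total counts the HPS32 change was 0.21 (adjusted p = 0.0106). SLRL1 (Os01g0646300), a relative of SLR1 that lacks the DELLA motif, fell more steeply. It had 4.67, 5.38 and 4.95 CPM in HPS32 under heat against 12.6, 12.46 and 15.7 CPM at 28 °C, and 3.53, 2.50 and 4.35 CPM in HJX under heat against 13.3, 14.4 and 12.51 CPM at 28 °C. The heat libraries lay below those at 28 °C in each line, with log2 fold changes of -1.44 ± 0.17 in HPS32 and -1.94 ± 0.18 in HJX (adjusted p = 3.08e-07 and 6.64e-09). Its heat level was 1.43-fold higher in HPS32 (adjusted p = 0.0274), a call that was lost when HPS32 heat library 2 or 3, or one of HJX heat libraries 1 and 2, was left out (adjusted p = 0.0866, 0.0557, 0.0590 and 0.134).

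**Figure D3:**
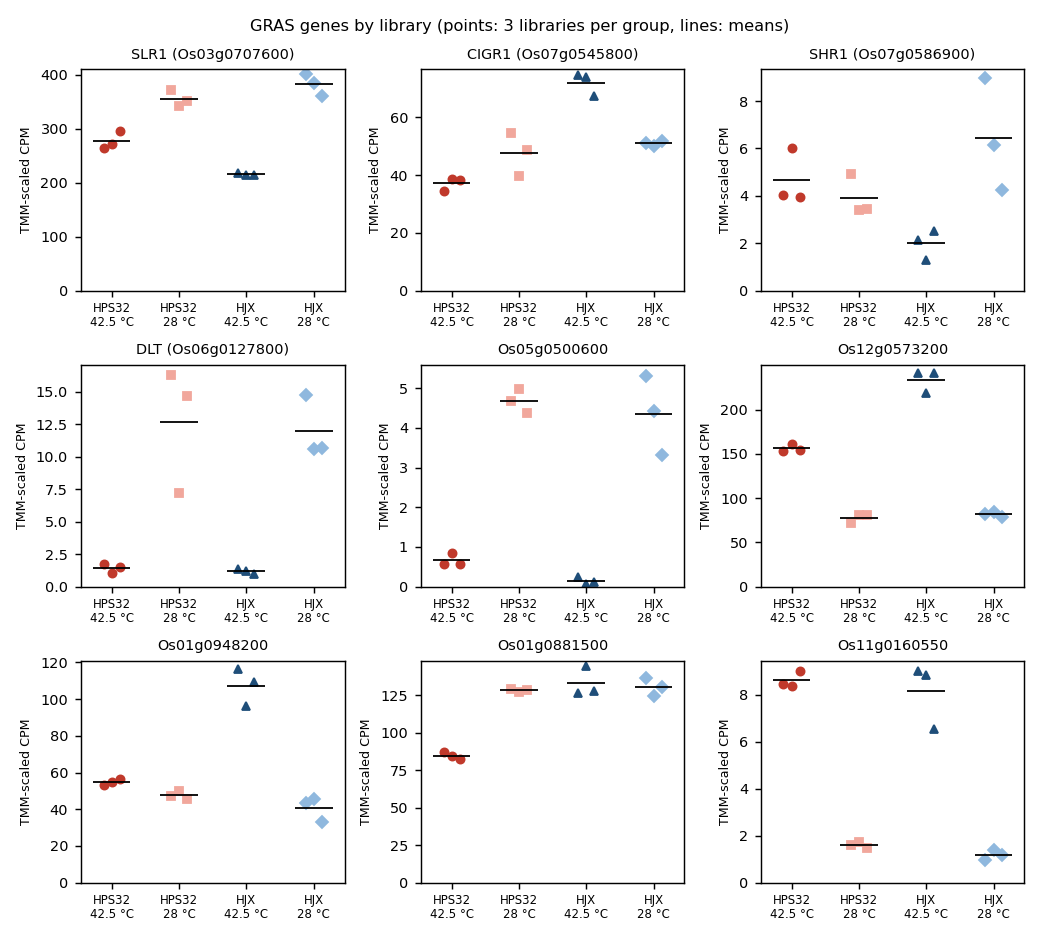
TMM-scaled CPM of 9 GRAS genes in each of the 12 libraries, with group means as lines; each panel has its own linear axis from 0. In HJX under heat SLR1 is lowest and CIGR1, Os12g0573200 and Os01g0948200 highest, while DLT and Os05g0500600 are near 0 under heat in both lines.

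The genes that make and sense gibberellin give the setting of SLR1. The list of gibberellin genes and the other pathway lists were drawn up with earlier results of these data known. Of 14 genes of gibberellin synthesis and breakdown 10 were tested, of which 2 rose and 6 fell under heat in HPS32 (34% and 36.4% of all genes), and 3 rose and 5 fell in HJX (38.1% and 36.8% of all genes), at median log2 fold changes of -0.84 and -1.13. With total counts the HPS32 split was 4 higher and 4 lower, and KS1 changed sign there to 0.34. KAO, which oxidises the gibberellin precursor kaurenoic acid, had 7.30 ± 1.28 CPM in HPS32 under heat against 72.5 ± 3.88 CPM at 28 °C, and 4.996 ± 0.665 CPM in HJX under heat against 58.1 ± 2.29 CPM at 28 °C (SD, n = 3 each). The log2 fold changes were -3.31 ± 0.11 and -3.53 ± 0.12. The kaurene oxidase gene KO2 changed by -1.96 ± 0.10 in HPS32 and -2.65 ± 0.10 in HJX, with an interaction of 0.69 ± 0.14 (adjusted p = 7.77e-04). GA20ox1, one of the oxidases of the later steps, changed by -1.91 ± 0.16 in HPS32 and -3.31 ± 0.18 in HJX, with an interaction of 1.40 ± 0.24 (adjusted p = 2.66e-04). Its relative GA20ox2, the gene of the green revolution semidwarf allele, went the other way, by 2.05 ± 0.25 in HPS32 and 2.98 ± 0.26 in HJX. GA3ox2, which makes the bioactive form, also rose, by 1.80 ± 0.31 and 1.21 ± 0.33. The HJX call was lost with a replicate block at 28 °C (adjusted p = 0.0732), a fit that measures heat changes against replicate 1 at 28 °C. GA2ox3, an enzyme of gibberellin breakdown, changed by -2.14 ± 0.19 in HPS32 and -2.12 ± 0.20 in HJX.

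The 3 genes kept in the list for gibberellin perception and signalling rose under heat in both lines, as did 28.4% of all genes tested. GID2 had been listed too, but was left out because the deposited description of its identifier did not carry the wording sought. The receptor gene GID1 had 142 ± 2.25 CPM in HPS32 under heat against 106 ± 4.07 CPM at 28 °C, and 217 ± 17.6 CPM in HJX under heat against 105 ± 4.88 CPM at 28 °C. It rose by 0.43 ± 0.07 in HPS32 and 1.05 ± 0.07 in HJX on the log2 scale, with an interaction of -0.62 ± 0.10 (adjusted p = 1.50e-04). GID1 and SLR1 thus had opposite signs in both heat comparisons and in the interaction, save that with total counts both rose in HPS32. GAMYB, a transcription factor downstream of gibberellin, rose by 1.23 ± 0.29 and 1.67 ± 0.28, and SPY, a glycosyltransferase that holds back gibberellin responses, by 0.37 ± 0.07 and 0.51 ± 0.07. Between the lines under heat, 4 of the 10 synthesis and breakdown genes were higher in HPS32 and none lower (21.6% and 23.6% of all genes), while GID1 and SPY were lower in HPS32. The SPY difference of -0.18 was no longer called with RLE scaling (adjusted p = 0.131) and took the other sign with total counts (0.08). Among the 4, GA3ox2 lost its call without HPS32 heat library 1 or HJX heat library 2 (adjusted p = 0.228 and 0.196), and in DESeq2 (adjusted p = 0.0537), and without any 1 of 5 other libraries its adjusted p lay between 0.0502 and 0.0671. None of these genes was called between the lines at 28 °C.

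**Figure D4:**
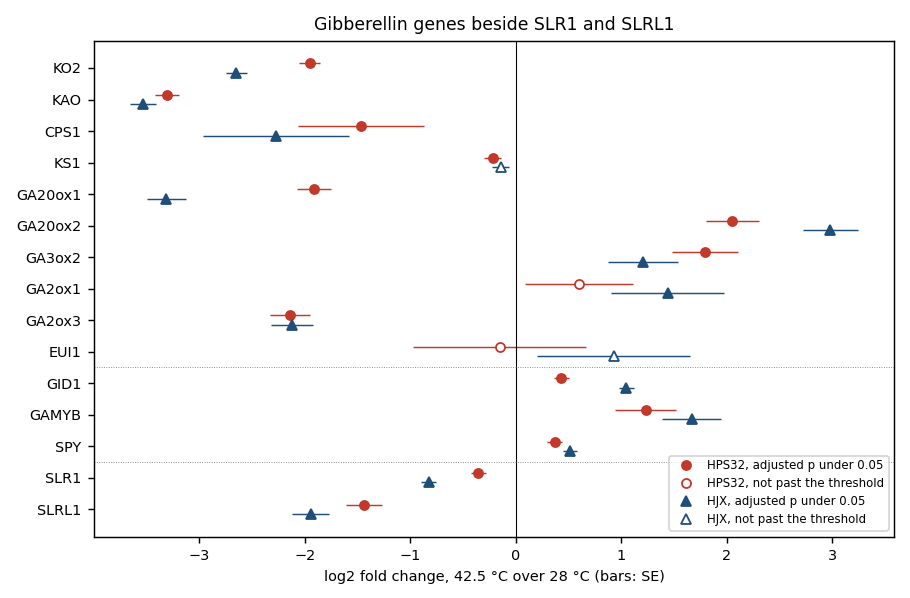
Log2 fold change between 42.5 °C and 28 °C, with SE bars, of the 10 tested genes of gibberellin synthesis and breakdown (top), of GID1, GAMYB and SPY (middle) and of the GRAS genes SLR1 and SLRL1 (bottom), in HPS32 (circles) and HJX (triangles). GID1, GAMYB and SPY lie right of 0 in both lines, and SLR1 and SLRL1 left of 0, although with total counts SLR1 in HPS32 would stand at 0.21.

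CIGR1 (Os07g0545800, chromosome 7, 21614976 to 21619678) was the 1 member called in opposite directions in the lines, although the HPS32 change took a positive sign, uncalled, with total counts. It had 34.4, 38.5 and 38.5 CPM in HPS32 under heat against 54.4, 39.6 and 48.6 CPM at 28 °C, and 74.6, 73.9 and 67.4 CPM in HJX under heat against 51.2, 49.9 and 51.8 CPM at 28 °C. The 3 HJX heat libraries were the highest of the 12 and the 3 HPS32 heat libraries the lowest, so that neither heat group overlapped any other group. CIGR1 changed by -0.36 ± 0.09 in HPS32 (adjusted p = 0.00223) and by 0.50 ± 0.09 in HJX (adjusted p = 7.21e-05), and the interaction was -0.85 ± 0.13 (adjusted p = 7.68e-05). With total counts the HPS32 change was 0.21 (adjusted p = 0.0514), while the interaction was still called. Under heat CIGR1 was 1.94-fold lower in HPS32 than in HJX (adjusted p = 1.03e-07). CIGR2 (Os07g0583600), on the same chromosome, fell in HPS32. Its libraries under heat were tight in HPS32, at 56.0, 54.5 and 55.7 CPM, and wider apart in HJX, at 89.5, 74.6 and 85.3 CPM. At 28 °C replicate 1 stood above the other two in both lines, with 155, 89.6 and 90.6 CPM in HPS32 and 159, 102 and 93.4 CPM in HJX. The heat change was -1.01 ± 0.26 in HPS32 (adjusted p = 0.00697) and -0.50 ± 0.26 in HJX (adjusted p = 0.104), and the HPS32 call was lost with total counts (-0.45, adjusted p = 0.129). With a replicate block at 28 °C the interaction was -0.50 (adjusted p = 4.81e-04) and the difference between the lines under heat -0.59 (adjusted p = 5.90e-07). Without the block their adjusted p were 0.344 and 0.0988. The HJX change in the block fit, -0.96 (adjusted p = 1.13e-09), is measured against replicate 1 at 28 °C, the high one. That value is therefore no estimate of the change from the group mean. Without HPS32 replicate 1 at 28 °C the HJX change and the difference under heat were also called (adjusted p = 0.0254 and 0.0238), as in limma-voom (adjusted p = 0.0416 and 0.0272).

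DLT (Os06g0127800), which acts in brassinosteroid responses and takes part in plant height and tillering in rice, fell close to 10-fold in each line. It had 1.74, 1.07 and 1.495 CPM in HPS32 under heat against 16.3, 7.19 and 14.7 CPM at 28 °C, and 1.38, 1.19 and 0.944 CPM in HJX under heat against 14.7, 10.6 and 10.7 CPM at 28 °C. Each heat library lay below each library at 28 °C, and among those at 28 °C HPS32 replicate 2 was the lowest. The falls were 8.79-fold in HPS32 (log2 fold change -3.14 ± 0.29, adjusted p = 6.84e-08) and 10.3-fold in HJX (-3.36 ± 0.31, adjusted p = 4.04e-08). The interaction of 0.22 ± 0.44 did not pass the test (adjusted p = 0.751). Of 5 genes of brassinosteroid signalling, all tested, 1 rose and 2 fell in HPS32 (34% and 36.4% of all genes) and 1 rose and 4 fell in HJX (38.1% and 36.8% of all genes) under heat. The receptor gene BRI1 had 110.4 ± 7.48 CPM in HPS32 under heat against 129 ± 10.1 CPM at 28 °C, and 72.0 ± 3.97 CPM in HJX under heat against 133 ± 14.4 CPM at 28 °C. Its interaction was 0.66 ± 0.12 (adjusted p = 3.89e-04), and its change in HPS32, -0.22 ± 0.09, was not called with RLE scaling (adjusted p = 0.0613) and turned to 0.34 with total counts. SMOS1, a transcription factor that partners DLT in rice, changed by -1.09 ± 0.10 in HPS32 and -0.51 ± 0.10 in HJX (not called with total counts, -0.21), with an interaction of -0.58 ± 0.14 (adjusted p = 0.00376) that total counts brought to -0.32 (adjusted p = 0.102).

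The SHORT-ROOT type members fell under heat in HJX but not, by the test, in HPS32. SHR1 (Os07g0586900) had 4.05, 6.02 and 3.97 CPM in HPS32 under heat against 4.91, 3.42 and 3.45 CPM at 28 °C, and 2.15, 1.31 and 2.52 CPM in HJX under heat against 8.96, 6.14 and 4.27 CPM at 28 °C. The HJX heat libraries were the lowest of the 12, and the HPS32 groups overlapped. The change was 0.25 ± 0.28 in HPS32 (adjusted p = 0.428) and -1.68 ± 0.29 in HJX (adjusted p = 4.70e-05), with an interaction of 1.93 ± 0.41 (adjusted p = 0.00153). On the total-count scale SHR1 was called higher under heat in HPS32, by 0.82 (adjusted p = 0.0110). SHR2 (Os03g0433200) had 4.67, 4.48 and 4.74 CPM in HPS32 under heat against 5.13, 4.27 and 3.31 CPM at 28 °C, and 2.57, 2.93 and 1.78 CPM in HJX under heat against 4.51, 3.79 and 4.12 CPM at 28 °C. Again the HJX heat libraries lay below the rest. The change was 0.13 ± 0.21 in HPS32 (adjusted p = 0.600) and -0.78 ± 0.23 in HJX (adjusted p = 0.00469). On the total-count scale SHR2 too was called higher under heat in HPS32, by 0.69 (adjusted p = 0.00643), and its change in HJX, -0.48, was not called (adjusted p = 0.0631). Its interaction of 0.90 ± 0.31 (adjusted p = 0.0347) lost its call when any 1 of 8 libraries was left out, the highest adjusted p being 0.104 without HJX heat library 3. Under heat SHR1 was 2.32-fold and SHR2 1.92-fold higher in HPS32 than in HJX (adjusted p = 0.00244 and 0.00179). The meristem marker OSH1 had 3 reads in HPS32 under heat and 1 at 28 °C, and 1 read in HJX under heat and 72 at 28 °C. OSH1 passed the filter only through HJX at 28 °C, where it was high, so the sign of its interaction is bound to that selection. Its part in the SHR1 and SHR2 values was not tested.

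The SCARECROW members, which act with SHORT-ROOT in patterning cell layers, rose in both lines. SCR1 (Os11g0124300) had 16.6, 22.8 and 18.2 CPM in HPS32 under heat against 11.6, 11.8 and 9.09 CPM at 28 °C, and 18.7, 16.1 and 18.1 CPM in HJX under heat against 11.9, 11.6 and 13.5 CPM at 28 °C. Its heat libraries stood above those at 28 °C in each line, with changes of 0.83 ± 0.14 in HPS32 (adjusted p = 2.35e-05) and 0.52 ± 0.14 in HJX (adjusted p = 0.00204). SCR2 (Os12g0122000) changed by 0.33 ± 0.11 in HPS32 (adjusted p = 0.0162) and 0.31 ± 0.12 in HJX (adjusted p = 0.0201), and neither call was firm. The HPS32 call was lost without HPS32 heat library 2 or 3 or HPS32 replicate 3 at 28 °C (adjusted p = 0.0694, 0.0544 and 0.111). The HJX call was lost without HJX heat library 1 or 3 or HJX replicate 1 at 28 °C (adjusted p = 0.0587, 0.0704 and 0.0666). SCL7 (Os03g0723000) had 9.03, 10.1 and 9.02 CPM in HPS32 under heat against 12.7, 10.9 and 8.38 CPM at 28 °C, groups that overlapped, and its change of -0.18 took the other sign with total counts (0.38, adjusted p = 0.0311). In HJX it fell, with 7.11, 7.99 and 8.03 CPM under heat against 13.0, 11.03 and 13.5 CPM at 28 °C (log2 fold change -0.70 ± 0.15, adjusted p = 3.70e-04).

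The HAIRY MERISTEM type members, whose transcripts are targets of the microRNA miR171 in plants, did not move together. Os04g0555000 had 9.49, 11.5 and 12.52 CPM in HPS32 under heat against 11.4, 12.0 and 11.3 CPM at 28 °C, while in HJX it rose, with 20.1, 21.1 and 20.0 CPM under heat against 13.0, 14.1 and 12.9 CPM at 28 °C. The 3 HJX heat libraries stood apart above the other 9. The change was -0.05 ± 0.12 in HPS32 and 0.61 ± 0.11 in HJX, with an interaction of -0.66 ± 0.17 (adjusted p = 0.00516) that did not pass with total counts (adjusted p = 0.0730). Its HPS32 change turned to 0.51 on that scale. Os02g0662700 and Os02g0663100 are close neighbours on chromosome 2, and both changed little. Os02g0663100 changed by -0.24 ± 0.10 in HPS32 (adjusted p = 0.0334) and by -0.36 ± 0.10 in HJX (adjusted p = 0.00292). The HJX call was lost with total counts (-0.06, adjusted p = 0.616). The HPS32 call was lost under RLE scaling and without any of 5 HPS32 libraries (adjusted p up to 0.102, without replicate 2 at 28 °C). It was also lost with a replicate block, measured against replicate 1 at 28 °C (adjusted p = 0.0940), and the change turned to 0.32 with total counts. The change of Os02g0662700 in HPS32, -0.15, was not called and turned to 0.41 with total counts. In HJX it changed by -0.42 ± 0.18 (adjusted p = 0.0472), a call lost with total counts (-0.12, adjusted p = 0.559), in DESeq2, in limma-voom and without any of 5 single libraries, the highest adjusted p among the omissions being 0.198 without HJX replicate 1 at 28 °C. The fourth of this type, Os06g0105350, had 15 reads in HPS32 under heat, 25 in HPS32 at 28 °C, 19 in HJX under heat and 15 in HJX at 28 °C, and was not tested.

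Among the members without a name, the steepest fall was that of Os05g0500600 (chromosome 5, 24631172 to 24632713). It had 0.564, 0.853 and 0.567 CPM in HPS32 under heat against 4.69, 4.98 and 4.37 CPM at 28 °C, and 0.239, 0.0624 and 0.105 CPM in HJX under heat against 5.32, 4.44 and 3.33 CPM at 28 °C. Transcripts were nearly gone in the HJX heat libraries, 7 reads in all, and low in those of HPS32, with 38 reads. The falls were 7.02-fold in HPS32 (log2 fold change -2.81 ± 0.30, adjusted p = 6.91e-08) and 30.6-fold in HJX (-4.93 ± 0.39, adjusted p = 8.88e-10), and the interaction was 2.12 ± 0.56 (adjusted p = 0.00736). Under heat its level was 4.67-fold higher in HPS32 (adjusted p = 0.00111). The HJX heat mean, 0.136 CPM, lay below the level of 3 reads, 0.154 to 0.220 CPM. The sizes of the HJX fall, of the interaction and of this difference are therefore uncertain. Os07g0567700 and Os11g0705200 also fell in both lines and further in HJX. Os07g0567700 had 14.98, 12.4 and 14.2 CPM in HPS32 under heat against 30.5, 26.4 and 26.1 CPM at 28 °C, and 11.5, 9.86 and 10.5 CPM in HJX under heat against 27.1, 32.2 and 28.3 CPM at 28 °C, changes of -0.997 ± 0.11 and -1.46 ± 0.11. Its interaction of 0.46 ± 0.16 (adjusted p = 0.0354) was lost without any 1 of 7 libraries, the highest adjusted p being 0.0988 without HJX replicate 2 at 28 °C, and its difference under heat (0.38 ± 0.12, adjusted p = 0.0118) without HPS32 heat library 1 (adjusted p = 0.0584). Os11g0705200 had 16.7, 15.6 and 19.7 CPM in HPS32 and 13.8, 13.5 and 14.9 CPM in HJX under heat, changes from 28 °C of -0.80 ± 0.10 and -1.36 ± 0.10, with an interaction of 0.56 ± 0.14 (adjusted p = 0.00453). Its neighbour Os11g0706100 also fell, with log2 fold changes of -1.11 ± 0.08 in HPS32 and -0.83 ± 0.08 in HJX, and its interaction of -0.28 ± 0.11 passed the test with a replicate block alone (adjusted p = 0.0334) or without HJX replicate 3 at 28 °C (adjusted p = 0.0147). Its difference under heat of -0.23 ± 0.08 (adjusted p = 0.0255) was lost with RLE scaling and without HPS32 heat library 2 or HJX heat library 2 or 3 (adjusted p = 0.116, 0.0583 and 0.105). The third of this group, Os11g0705900, went the other way in HPS32, with 2.36, 2.67 and 2.47 CPM under heat against 1.25, 0.854 and 1.13 CPM at 28 °C (1.21 ± 0.30, adjusted p = 0.00143). In HJX it had 1.25, 1.75 and 1.47 CPM under heat against 1.46, 1.63 and 0.868 CPM at 28 °C, groups that overlapped.

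The largest rises among well expressed members were those of Os11g0160550, Os12g0138166 and Os12g0573200. Os11g0160550 had 8.46, 8.37 and 9.02 CPM in HPS32 under heat against 1.61, 1.71 and 1.48 CPM at 28 °C, and 9.03, 8.86 and 6.56 CPM in HJX under heat against 0.947, 1.37 and 1.16 CPM at 28 °C. It rose 5.37-fold in HPS32 and 6.95-fold in HJX (adjusted p = 2.73e-09 and 5.12e-10), and the interaction of -0.37 ± 0.31 did not pass the test. Os12g0138166, in the chromosome 12 block of near-identical copies, rose 5.22-fold in HPS32 and 4.15-fold in HJX. Its heat libraries held 5.75, 4.64 and 5.05 CPM in HPS32 and 2.45, 3.87 and 3.62 CPM in HJX, a difference that was called with a replicate block (adjusted p = 0.0322) but not without it (adjusted p = 0.0646). Os12g0573200 was among the most abundant members. It had 154, 162 and 154 CPM in HPS32 under heat against 72.1, 80.5 and 81.3 CPM at 28 °C, and 241, 218 and 242 CPM in HJX under heat against 82.2, 84.5 and 78.4 CPM at 28 °C. The HJX heat libraries were the highest and the HPS32 heat libraries next, and both lay above the libraries at 28 °C, which overlapped between the lines. It rose 2.005-fold in HPS32 and 2.86-fold in HJX, with an interaction of -0.51 ± 0.10 (adjusted p = 7.41e-04) that missed the threshold with total counts (adjusted p = 0.0649).

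Os01g0948200 rose in HJX and hardly in HPS32. It had 52.99, 55.0 and 56.5 CPM in HPS32 under heat against 47.4, 49.8 and 45.3 CPM at 28 °C, and 116, 96.1 and 109 CPM in HJX under heat against 43.5, 45.7 and 33.1 CPM at 28 °C. The HJX heat libraries stood far above the other 9. The change was 0.21 ± 0.10 in HPS32 (adjusted p = 0.0719; 0.0363 with RLE scaling, 0.0232 without HJX replicate 3 at 28 °C and 3.19e-07 with total counts) and 1.39 ± 0.10 in HJX (adjusted p = 3.36e-10). The interaction of -1.19 ± 0.14 (adjusted p = 5.96e-06) was called under each alternative, and under heat the level was 1.96-fold lower in HPS32. Os01g0881500 had the reverse of this pattern, a fall in HPS32 with no change called in HJX. It had 87.5, 84.4 and 82.4 CPM in HPS32 under heat against 129, 128 and 129 CPM at 28 °C, and 127, 145 and 128 CPM in HJX under heat against 137, 124 and 131 CPM at 28 °C. The HPS32 heat libraries stood apart below the other 9, and the change there was -0.60 ± 0.07 (adjusted p = 2.50e-07) against 0.03 ± 0.07 in HJX (adjusted p = 0.718). With total counts the HPS32 change was -0.04 and that of HJX 0.33 (adjusted p = 0.626 and 2.83e-04), while the interaction (-0.63 ± 0.10, adjusted p = 8.52e-05) was called on either scale. Os01g0842200 fell in both lines, to 92.4, 99.2 and 102 CPM in HPS32 under heat against 198, 149 and 155 CPM at 28 °C, and to 153, 132 and 139 CPM in HJX under heat against 169.6, 194 and 157 CPM at 28 °C. Its change in HPS32, -0.77 ± 0.10, was -0.21 with total counts and then not called (adjusted p = 0.0571). Its interaction was -0.48 ± 0.14 (adjusted p = 0.0187), not called without HJX heat library 1 (adjusted p = 0.0542) or with total counts (adjusted p = 0.248), and its change in HJX of -0.30 ± 0.10 was not called with total counts (0.00343) or without HJX heat library 2 or HJX replicate 2 at 28 °C (adjusted p = 0.0569 and 0.0868).

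Under heat the lines differed in 19 of the 39 members, 48.7%, where 45.2% of all tested genes were called. HPS32 was higher in 8 (background 21.6%) and lower in 11 (23.6%). With total counts the split was 15 higher and 8 lower (38.7% and 12.1% of all genes). Without HPS32 heat library 3 or HJX heat library 1 the 8 higher became 5, and the shares of all genes in those fits are not given here. The median size of the difference was 0.31 over the members against 0.38 over all genes. Of the 19, 4 reached 2-fold, and the share of all genes that did so is not given here. The 8 higher members were Os05g0500600, SHR1, SHR2, SLRL1, Os07g0567700, SLR1, Os11g0705200 and Os11g0705900. The last of these, at 0.74 ± 0.28, lost its call without any 1 of 5 heat libraries (adjusted p between 0.0621 and 0.130), and that of Os11g0705200, at 0.30 ± 0.10, without HPS32 heat library 3 or HJX heat library 1 or 2 (adjusted p = 0.149, 0.0640 and 0.0583). The 11 lower members included Os01g0948200, CIGR1, Os04g0555000, Os01g0881500, Os12g0573200 and Os01g0842200. The largest ratio was that of Os04g0432100, a member with few reads outside HJX under heat. It passed the filter only through that group, where it was high. The rank of its changes among the members is therefore not read as a result. It had 0.769, 0.320 and 0.773 CPM in HPS32 under heat against 4.25, 3.43 and 2.46 CPM in HJX (-2.42 ± 0.41, adjusted p = 8.80e-05). At 28 °C it had 8 reads over the HPS32 libraries and 4 over those of HJX. Its rise under heat in HJX was 33.4-fold (5.06 ± 0.59, adjusted p = 2.48e-07), measured from those few reads. Its rise in HPS32 (1.67 ± 0.63) was not called with a replicate block (adjusted p = 0.273), which measures it against replicate 1 at 28 °C. Os12g0136300 was also low and passed the filter only through HJX under heat. It had 0.975, 0.373 and 0.258 CPM in HPS32 against 1.38, 1.87 and 1.36 CPM in HJX under heat. Its call (-1.50 ± 0.45, adjusted p = 0.0103) was lost without HPS32 heat library 2 or 3 (adjusted p = 0.0516 and 0.0630). Among the lower members, the smallest called differences were those of Os03g0690600 (-0.28), Os04g0580300 (-0.30) and Os11g0706100 (-0.23). That of Os04g0580300 was lost in 12 alternatives, among them RLE scaling (adjusted p = 0.0916) and the omission of HJX heat library 3 (adjusted p = 0.136), that of Os03g0690600 was lost with total counts (-0.03), and that of Os11g0706100 changed sign there (0.03).

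The heat responses themselves differed between the lines in 15 members by the interaction test, 38.5%, where 29.3% of all tested genes were called. The interaction was positive in 7 (background 13.3%) and negative in 8 (16%), and with total counts the split was 11 and 4 (25.8% and 7.46% of all genes). A positive value means that the change in HPS32 lay above that in HJX. The heat change of each line is part of this value. The positive ones were SLR1, SHR1, SHR2, Os05g0500600, Os07g0567700, Os11g0705200 and Os02g0681900. Os02g0681900 had 23.1, 23.0 and 23.8 CPM in HPS32 under heat against 13.4, 13.8 and 14.6 CPM at 28 °C, and 19.8, 20.2 and 20.8 CPM in HJX under heat against 15.4, 20.8 and 16.2 CPM at 28 °C. Its rise was called in HPS32 (0.74 ± 0.11, adjusted p = 7.30e-06), and the interaction of 0.53 ± 0.16 was lost without HJX replicate 2 at 28 °C (adjusted p = 0.0561), the high library of its group. Without that library the rise in HJX was called as well (adjusted p = 0.00679), as it was with a replicate block (adjusted p = 0.0245). The block fit measures the rise against replicate 1 at 28 °C. The negative ones were Os01g0948200, CIGR1, Os04g0555000, Os01g0881500, Os12g0573200, Os01g0842200, Os03g0690600 and Os04g0432100. Os03g0690600 rose in both lines, to 73.8 ± 1.74 CPM in HPS32 under heat against 53.5 ± 1.99 CPM at 28 °C, and to 89.9 ± 2.22 CPM in HJX under heat against 53.9 ± 3.45 CPM at 28 °C (SD, n = 3 each). Its interaction of -0.27 ± 0.10 (adjusted p = 0.0380) was lost with RLE scaling (adjusted p = 0.0809), with total counts (-0.01, adjusted p = 0.971), in DESeq2 and without any 1 of 9 libraries (adjusted p up to 0.102, without HJX replicate 1 at 28 °C). That of Os04g0432100, -3.39 ± 1.05, was lost without HPS32 replicate 1 or 2 at 28 °C (adjusted p = 0.0531 and 0.0971).

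The remaining tested members changed little or were close to the limit of detection. Os03g0193000, at 19.2 ± 0.729 CPM per kb in HPS32 under heat, 20.4 ± 1.67 in HPS32 at 28 °C, 21.6 ± 0.0554 in HJX under heat and 19.0 ± 0.910 in HJX at 28 °C, was an abundant member that hardly moved. Its change of -0.08 ± 0.07 in HPS32 was not called and turned to 0.48 with total counts. Its rise in HJX of 0.19 ± 0.07 (adjusted p = 0.0268) was lost without any 1 of the 3 HJX heat libraries (adjusted p = 0.0603, 0.0587 and 0.0630) or without HJX replicate 1 at 28 °C (adjusted p = 0.115). Its interaction and its difference under heat passed with a replicate block (adjusted p = 0.0323 and 0.0342). Os04g0580300 changed by -0.38 ± 0.12 in HPS32 and -0.33 ± 0.12 in HJX, but the HPS32 call was lost without HPS32 replicate 1 at 28 °C (adjusted p = 0.0624) and the HJX call without HJX heat library 1 or HJX replicate 1 at 28 °C (adjusted p = 0.0743 and 0.151). On the total-count scale the changes were 0.19 in HPS32 and -0.03 in HJX, and neither was called (adjusted p = 0.133 and 0.843). Of the overlapping pair on chromosome 10, Os10g0369750 rose by 0.63 ± 0.14 in HJX (adjusted p = 3.45e-04), while Os10g0369600 was called in neither line. With a replicate block Os10g0369750 was also called between the lines under heat (adjusted p = 0.0147) and in the interaction (adjusted p = 0.0299). It was called there in HPS32 too (0.48, adjusted p = 0.00406), but measured against replicate 1 at 28 °C. In the other pair on that chromosome, Os10g0551401 was called higher in HPS32 and Os10g0551200 in HJX, at changes of 0.49 ± 0.17 and 0.49 ± 0.17. Both calls rested on single libraries: that of Os10g0551401 was lost without HPS32 heat library 3 or HPS32 replicate 1 at 28 °C (adjusted p = 0.116 and 0.0651), and that of Os10g0551200 without HJX heat library 3 or HJX replicate 3 at 28 °C (adjusted p = 0.0647 and 0.0678). Os02g0197300 was low throughout and rose by 2.38 ± 0.58 in HPS32 (adjusted p = 0.00129), with 1.74, 1.60 and 1.24 CPM under heat against 0.366, 0.427 and 0.0704 CPM at 28 °C. It passed the filter only through HPS32 under heat, where it was highest. Its call in HJX (1.56 ± 0.61) did not hold without any 1 of 4 HJX libraries (adjusted p up to 0.136, without replicate 2 at 28 °C). Nor did it hold with a replicate block, measured against replicate 1 at 28 °C (adjusted p = 0.121). Os04g0590400 was called lower in HPS32 (-0.31 ± 0.11) and Os03g0103400 in HJX (-0.55 ± 0.23), the first turning to 0.25 and the second losing its call (-0.25) with total counts. The call of Os04g0590400 was lost without HPS32 heat library 1 or HPS32 replicate 3 at 28 °C (adjusted p = 0.0695 and 0.0834), and that of Os03g0103400 without any 1 of 7 libraries (adjusted p up to 0.207, without HJX replicate 2 at 28 °C).

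Among genes that act with other members, D14, the strigolactone receptor gene, changed by -0.55 ± 0.09 in HPS32 and -0.55 ± 0.09 in HJX on the log2 scale, which total counts brought to 0.02 in HPS32. Of the 5 strigolactone genes kept in the list 2 were tested, and the other, D17, was called in neither line. Of 2 genes kept for tillering and common symbiosis signalling, TB1 had no read and CCaMK was called in neither line. D27, D3, D53, TAD1 and CYCLOPS had been listed too, but were left out because their deposited descriptions did not carry the wording sought. The authors' deposited table, whose tests the submitters' notes attribute to DESeq2, called 24 GRAS members under heat in HPS32 (11 higher and 13 lower), 27 in HJX (12 and 15), 20 between the lines under heat (6 and 14) and none at 28 °C. Of the calls above, 22 of 25, 24 of 30 and 16 of 19 stood in that table with the same direction. The share of all genes called by the authors is not given here.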

How the data were processed

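Whole-number read counts per gene, gene lengths and descriptions were deposited by the authors in 1 table with their own log2 fold changes and p-values. Reads had been aligned with HISAT2 2.0.5, counted with featureCounts 1.5.0-p3 and tested with DESeq2 1.20.0, per the submitters' processing notes, and the genome build is not given in the sources used here. The library kit named in the labels does not mark strand.

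The deposited counts were tested in R 4.3.3 with edgeR 4.0.16: TMM factors, the default expression filter, and robust quasi-likelihood F tests on 4 group means over the 12 libraries, with Benjamini-Hochberg adjustment over the 25473 genes kept and a threshold of 0.05. All adjusted p-values given are from this fit unless another is named, and the SE of a log2 fold change is |log2 fold change|/√F. Fold changes run HPS32 over HJX and 42.5 °C over 28 °C. CPM are TMM-scaled, with 3 reads as the floor.

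The members and lists were chosen with earlier results of these data known. Named members were those with a known role, the most abundant, and those with the largest called changes at an average log2 CPM of at least 1. Os02g0197300, Os03g0103400, Os03g0193000, Os04g0432100, Os04g0590400, Os07g0589200, Os10g0369600, Os10g0551200, Os11g0705900 and Os12g0136300 were added after their values were seen. CIGR1 and CIGR2 follow RefSeq's order along chromosome 7 (assembly ASM3414082v1), not an earlier listing that had them exchanged.

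Alternatives were RLE or total-count scaling, no filter, a stricter filter (3 libraries with 1 CPM or more), DESeq2 1.42.0, limma-voom (limma 3.58.1), fits of the compared groups alone, a 2-fold minimum, a replicate block, and each library left out. Leaving out overlapping members was chosen after seeing the data. The heat columns carry no replicate number that ties them to the labels, so heat libraries are numbered 1 to 3 for naming alone and the block covers 28 °C. There, same-numbered libraries of the lines deviated together, with correlations of 0.426, 0.113 and 0.403 across the 20958 genes that averaged 1 or more in log2 CPM, and the numbers were taken as pairs. The second pair is the weak one: over all 25473 tested genes the correlations were 0.289, 0.0756 and 0.275, and differently numbered libraries reached 0.0748 in the first set. The heat libraries carry no block term, so in the block fit the 28 °C level of a line is that of replicate 1. Heat changes from that fit are therefore measured against replicate 1 and not against the group mean. Its interactions and differences between the lines do not carry this shift. The test was checked on simulated counts for the lines at 28 °C, where 8.99% of the genes called had not been changed.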

Additional observations from a re-analysis of the deposited data

Results flagged for a closer look

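The change under heat differed between the lines for 15 GRAS genes by the interaction test in edgeR. Values are the log2 change in HPS32 minus that in HJX, so a positive one means that HPS32 fell less or rose more.

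Among the 7 positive values, Os05g0500600 had the largest at 2.12, with 0.661 ± 0.166 CPM in HPS32 and 0.136 ± 0.0923 CPM in HJX under heat (SD, n = 3 each). The HJX mean lay below the level of 3 reads, so the size of this value is uncertain. SHR1 (Os07g0586900) followed at 1.93 and SHR2 (Os03g0433200) at 0.90. Os11g0705200 stood at 0.56, Os02g0681900 at 0.53, SLR1 (Os03g0707600) at 0.47 and Os07g0567700 at 0.46. Among the 8 negative values, Os04g0432100 had -3.39, from very few reads at 28 °C in either line. It passed the filter only through HJX under heat, where it was high. Os01g0948200 had -1.19, CIGR1 (Os07g0545800) -0.85, Os04g0555000 -0.66 and Os01g0881500 -0.63. Os12g0573200 had -0.51, Os01g0842200 -0.48 and Os03g0690600 -0.27.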

How the results depend on the processing

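Of the calls made, 14 of 25 under heat in HPS32, 19 of 30 in HJX, 11 of 19 between the lines under heat and 7 of 15 in the interaction held under each alternative, the 2-fold minimum aside. Total-count scaling moved these counts: 22 higher and 6 lower in HPS32, 9 lower in HJX, 15 higher between the lines under heat, and 11 higher and 4 lower in the interaction. Among changes called on either scale, it turned the sign of 13 under heat in HPS32: SLR1 0.21, Os03g0193000 0.48, CIGR1 0.21, Os04g0580300 0.19, Os04g0590400 0.25, Os02g0663100 0.32, Os04g0555000 0.51, SCL7 0.38, Os02g0662700 0.41, BRI1 0.34, D14 0.016, KS1 0.34 and GSK2 0.48. By the same count, in HJX it turned Os01g0842200 to 0.0034 and Os04g0590400 to 0.28, and between the lines under heat Os11g0706100 to 0.031, KS1 to 0.24 and SPY to 0.080. Relative to TMM, total counts raise the median of all genes by 0.56, 0.30, 0.26 and 0.26 on the log2 scale in the 4 comparisons other than 28 °C. Which scale lies closer to the RNA levels was not tested.

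With a 2-fold minimum the counts were 6 higher and 5 lower in HPS32, 7 and 6 in HJX, and 2 and 2 both between the lines under heat and in the interaction. The shares of all genes at that minimum are not given here, so these counts are not read against a background. Leaving out 1 library gave 8 to 12 higher and 13 to 15 lower in HPS32, 11 to 15 and 13 to 17 in HJX, 5 to 9 and 8 to 14 between the lines under heat, 5 to 8 and 6 to 9 in the interaction, and 0 and 0 at 28 °C. With the replicate block at 28 °C the counts were 11 and 12, 14 and 16, 9 and 14, 0 and 0 at 28 °C, and 7 and 12 in the interaction. The counts for heat in each line are there measured against replicate 1 at 28 °C. The causes of these shifts were not tested. Without members that overlap another gene, the counts were 10 and 10, 12 and 10, 8 and 8, 0 and 0, and 7 and 7. Shares of all genes are not given for the omissions, the block, the overlaps or the calls held under each alternative. Those counts are therefore not read against a background either. No alternative called a member at 28 °C. Depth limits the members below 0.154 to 0.220 CPM, the level of 3 reads.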
